A study of Drosophila melanogaster with 2 samples.

Results

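Of the 2198 pooled binding peaks of the transcription factor Bowl in Drosophila melanogaster embryos, 313 (14.2%, 95% interval 12.8 to 15.8) were intronic peaks close to a gene start. They were chosen by the position of the summit, the base of highest signal in a peak. The summit lay in the body of a protein-coding gene, outside coding sequence and UTRs, more than 500 bp and at most 2000 bp from the nearest start (transcription start site) of a protein-coding gene. Signal played no part in that choice beyond the threshold that made each region a peak.

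ChIP-seq, the sequencing of DNA co-precipitated with a protein, located Bowl in whole embryos collected from 0 to 24 h of development. The flies carried a bowl-eGFP transgene, the precipitation used an antibody against GFP by the samples' description, although another label gives bowl as the antibody, and sonicated chromatin had a stated size range of 200 to 800, with no unit. The 2 samples are biological replicates of 1 group, and no untagged or second group was analysed here. Whole embryos of all these ages mix many cell types, the fusion protein is expressed beside whatever the chromosomal gene makes, and a peak cannot be assigned to a tissue or an age.

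Bowl is a C2H2 zinc-finger protein of the odd-skipped family. The protein Lines opposes it and Drumstick relieves that opposition, and genetic work places Bowl in the patterning of the embryonic gut and epidermis and in leg joint formation downstream of Notch. First introns of Drosophila genes often hold enhancers and alternative promoters, so a site shortly downstream of one start can also lie upstream of another start of the same gene.

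The deposited values for each peak are a signal, which is the peak caller's score on no stated scale and can be compared within 1 list only, and a −log10 of the irreproducible discovery rate (IDR), which is low where a region ranks alike in a pair of peak sets. The authors' pooled list was read against the 132019 pooled candidate regions from which it was drawn. The thresholded list of replicate 1 has 1662 peaks out of 102124 candidates, and that of replicate 2 has 772 out of 106305. The lists hold no read counts, so read depth is unknown. The 95% intervals follow Wilson's method and reflect only the number of peaks counted. Peaks of 1 genome share their libraries and are not replicates, so no p-values are given and every contrast with other regions is a description.

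Within 100 bp of summits, 1 short DNA word separated these peaks from weaker regions in the same position more than other known words searched. It is shown first. The word ACAGTGG was picked from earlier results of these data and is not independent of them. It was searched on both strands within 100 bp of each summit. The sequences below are 30 bases each, 5′ to 3′ along the strand that carries the word, from the RefSeq Release 6 (dm6) sequence. They come from 11 of the 12 strongest near-start intronic peaks with the word, leaving out those on 1 chromosome arm, and capitals mark the word.
NFAT (plus strand, chrX:13640424-13640453): gttgctttgccACAGTGGgctagagcgtgc
norpA (minus strand, chrX:4325052-4325081): ttatctcaagtACAGTGGggcctttttgtg
CG31635 (minus strand, chr2L:6647288-6647317): gttaacattgcACAGTGGggtgaaaagaaa
for (plus strand, chr2L:3655713-3655742): ctgagtcgaatACAGTGGgacccccacttg
prage (minus strand, chrX:1830829-1830858): gtcgcgatcgcACAGTGGgtgtaaaaatga
Dok (minus strand, chrX:7325113-7325142): ctgaaactccaACAGTGGgggtaaagttat
Zw (minus strand, chrX:19668671-19668700): gtcacaagccgACAGTGGtgtttgcctagc
Csk (minus strand, chr3R:11649698-11649727): ggtcacacgatACAGTGGccgcaaaaggaa
CG32767 (minus strand, chrX:5083825-5083854): ggccccatcgcACAGTGGgacgcgcagact
CG1737 (plus strand, chrX:11351467-11351496): atcagtggaatACAGTGGgccctggctacg
MYPT-75D (minus strand, chr3L:18640756-18640785): agatagtgcttACAGTGGtgggatggaata

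NFAT encodes a Rel-family transcription factor, norpA the phospholipase C of phototransduction, for a cGMP-dependent protein kinase, Dok an adaptor of tyrosine kinases, Zw glucose-6-phosphate dehydrogenase, Csk an inhibitory kinase of Src and MYPT-75D a myosin phosphatase subunit. Read along the word, the summit lay downstream of it in all 11 windows, 33 bp (MYPT-75D) to 96 bp (Dok) away. In 5 of the 11 the word was on the strand of the host gene. Each window shows the copy closest to the summit. Within 200 bp, NFAT, CG31635, for, prage, CG32767 and CG1737 also held a copy on the other strand. For these the strand given depends on which copy lay closer. A G followed the word in 8 of the 11.

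For comparison, the core word of the odd-skipped family, CAGTAGC, was found within 100 bp of the summit in 6 of the 313 peaks. The windows of 3 are shown, those in sima, the HIF alpha homologue, in capu, a formin, and in cnc, a bZIP factor of head segmentation and stress responses. Capitals mark CAGTAGC.
sima (minus strand, chr3R:30061225-30061254): tttcagtgctcCAGTAGCaagcaagagtgt
capu (minus strand, chr2L:3896836-3896865): caatttccccaCAGTAGCctgcccggacag
cnc (plus strand, chr3R:23201167-23201196): gtcgacgtaggCAGTAGCgcaagagaaatg

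The strongest peak of the whole pooled list lay in an intron of CG11050, and its summit window, shown in lower case since neither word was found within 100 bp of the summit, reads as follows.
CG11050 (plus strand, chr2L:6612682-6612711): atgcatatttgcttaaaattaatacaagat

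ACAGTGG lay within 100 bp of the summit in 51 of 313 near-start intronic peaks (16.3%, 12.6 to 20.8). The share was 13.5% (10.6 to 17.1) of 422 intronic peaks more than 2000 bp from a start, 30 (7.09 to 13.9%) of 300 intergenic peaks and 7.89% (6.43 to 9.66) of 1077 promoter peaks, which lie within 500 bp of a start. Pooled candidates that failed the IDR threshold and lay in the same intronic position numbered 10940, and 3.59% of them (3.26 to 3.96) held the word. The intervals of the near-start intronic peaks and the promoter peaks did not overlap, whereas those of the near-start and the far intronic peaks did.

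**Figure D1:**
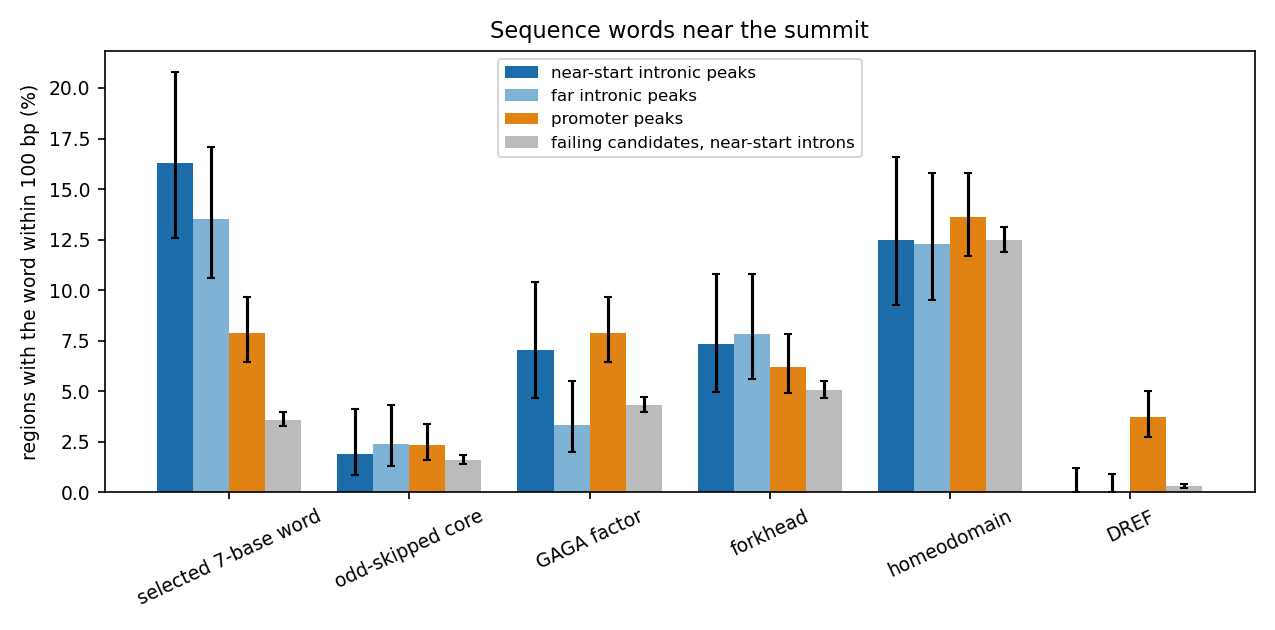
Share of regions with a word within 100 bp of the summit (y axis, percent), for near-start intronic peaks, far intronic peaks, promoter peaks and failing candidates in near-start introns, with 95% Wilson intervals. The word selected from these data, ACAGTGG, stands at 16.3% in near-start intronic peaks and 3.59% in failing candidates, and the odd-skipped core CAGTAGC at 1.92% and 1.60%.

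The 51 peaks with ACAGTGG had a median signal of 98.7 and the 262 without it 85.9, with ranges that overlapped widely. With the peaks split by signal into 4 bins of 78 or 79, from lowest to highest, 13.9% (7.96 to 23.2), 11.5% (6.19 to 20.5), 15.4% and 24.4% of the peaks held the word. Base composition differed between peaks and failing candidates, with a median GC content of 37.8% and 43.8%. Among regions with a GC content between 32.8% and 43.3%, the middle range of the peaks, ACAGTGG was present in 30 of 163 peaks (18.4%, 13.2 to 25.1) and in 3.65% of 4444 failing candidates. GC content was not matched within that range, and a part of base composition in the contrast was not tested.

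The position of the word relative to the summit was directional. Within 200 bp of the summit, 73 peaks held 98 occurrences of ACAGTGG, 24 of those peaks held more than 1 occurrence, and the most in any peak was 3. In most of the 24, copies on opposite strands stood on either side of the summit, with the summit downstream of both. Examples are CG31635 (123 and 66 bp from the summit), for (71 and 119 bp) and kis (64 and 75 bp). Dok and Csk were among those without such a pair. The summit lay downstream of the word, read along it, in 84 of 98 occurrences (85.7%, 77.4 to 91.3), against 387 of 749 (51.7%, 48.1 to 55.2) in failing candidates. The intervals treat occurrences as separate, although occurrences in the same peak are not independent. A copy in Tmem214 was counted for both of its overlapping peaks, once on each side of the summit. The median distance from word to summit was 80.5 bp (quartiles 54 and 118.8), and 59.2% of occurrences (49.3 to 68.4) lay 50 to 120 bp from the summit, against 37.1% (33.7 to 40.6) in failing candidates. The word was on the strand of the host gene in 48 of 98 occurrences (49.0%, 39.3 to 58.7). Peaks with copies on opposite strands count on both sides, which draws this share toward an even split. It therefore says little about a strand preference.

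**Figure D2:**
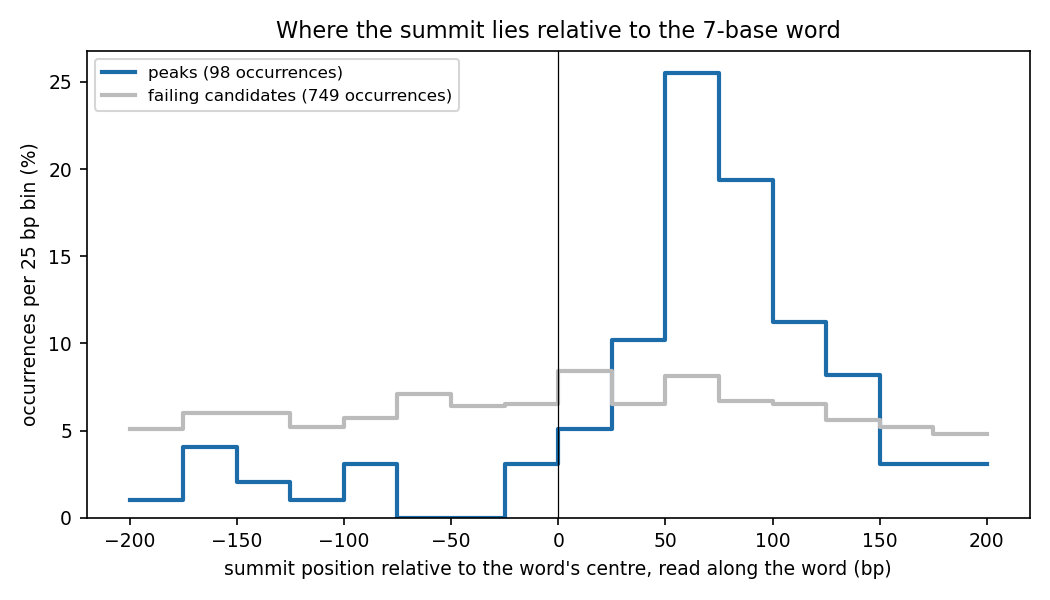
Position of the summit relative to the centre of ACAGTGG, read along the word (x axis, bp), as the percent of occurrences in each 25 bp bin (y axis), for 98 occurrences in near-start intronic peaks and 749 in failing candidates. The peaks' occurrences pile up between 50 and 120 bp downstream (59.2% at that distance on either side), while those of the failing candidates spread over both sides.

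Bases next to the word differed less than its position did. The base before it was C in 48.0% of occurrences (38.3 to 57.7) against 37.1% in failing candidates and G in 7 of 98 (7.14%) against 17.6%, and the base after it was G in 38.8% (29.7 to 48.7) against 29.8%. Related words that differ at the last bases were rarer. ACAGTAG was found in 10 peaks (3.19% against 1.15% of failing candidates), ACAGTAC in 11 (3.51% against 0.823%) and ACAGTGT in 12 (3.83% against 1.68%).

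When all 1802 words of 7 bases present in at least 10 of the peaks were ranked by the ratio of their share in peaks to that in failing candidates, ACAGTGG came at rank 3 with 4.53-fold. CTGTACC (4.92-fold, 14 peaks) and CAGTACA (4.66-fold, 19 peaks) came before it, each in fewer peaks, and ACAGTAC (4.25-fold) and ACTGTAC (4.17-fold, 25 peaks) followed. Several of the leading words share letters with ACAGTGG, but only some often overlapped it in the genome. CACTGTA, at 3.95-fold, was present in 32 peaks and overlapped an ACAGTGG in 21 of them, and ACTGTAC overlapped one in 11 of its 25. By contrast, CTGTACC overlapped ACAGTGG in 3 of its 14 peaks, CAGTACA in 0 of 19 and ACAGTAC in 0 of 11.

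Words of other factors were searched in the same windows. CAGTAGC was present in 1.92% of the peaks (0.881 to 4.12) and 1.60% of failing candidates, and in the GC range above in 1.23% and 1.28%. The 3 peaks on arm 2R with CAGTAGC were in Adf1, Fili and CG14502, and of all 6 the strongest was that of Adf1 (signal 396), followed by sima (188) and Fili (136). GAGAGAG, the repeat bound by GAGA factor, was present in 22 peaks (7.03%, 4.69 to 10.4), in 7.89% of promoter peaks, 3.32% of far intronic peaks and 4.34% of failing candidates. AGAGAGCG, another word taken from earlier results, was present in 13 peaks (4.15%, 2.44 to 6.98) and in 1.60% of failing candidates. Within 200 bp its shares were 11.5% and 3.01%, beside 23.3% and 6.3% for ACAGTGG. Within 100 bp and in the GC range above, those of AGAGAGCG were 4.29% and 0.99%. The forkhead word TGTTTAC was present in 7.35% (4.95 to 10.8) against 5.06%, and the homeodomain word TAATTA in 12.5% of both. TATCGATA, the DREF word, was absent from all 313 windows, which allows a share of up to 0.958% (3 counts of the total), and likewise from the 422 far intronic and 300 intergenic windows. It was present in 0.302% of failing candidates and 3.71% of promoter peaks. The other 9 words searched were present in 0.319% to 9.90% of the peaks, namely the Zelda word CAGGTAG in 0.639% (1.27% of failing candidates), the CTCF word AGGTGGCGC in 0.319% (0.192%), the GATA word AGATAAG in 3.19% (2.75%), the Twist word CACATGT in 2.56% (3.07%) and the Caudal word TTTATGA in 7.03% (5.66%). The Pangolin word CATCAAAG was present in 0.639% (0.804%), the Su(H) word TGGGAA in 9.90% (13.3%), the T-box word AGGTGTGA in 0.319% (0.494%) and the Grainyhead word AACCGGTT in 0.319% (0.484%). For CAGTAGC and the forkhead and homeodomain words the share in failing candidates was inside the peaks' interval. ACAGTAG, which shares the bases CAGTAG with CAGTAGC, was present in 3.19% of peaks and 1.15% of failing candidates, as given above.

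Near-start introns were covered by 11267 pooled candidates, of which the 313 peaks are 2.78%, whereas 1.66% of all 132019 candidates became peaks. The same introns held 8.43% of all failing candidates. The listed share was highest next to the start. Between 501 and 750 bp, 86 of 2252 candidates were peaks (3.82%, 3.10 to 4.69), between 751 and 1000 bp 58 of 2111 (2.75%, 2.13 to 3.54), and between 1751 and 2000 bp 36 of 1579 (2.28%, 1.65 to 3.14). After the closest bin the shares were 2.24% to 2.75%. The closest bin's interval overlapped those of all others except 1501 to 1750 bp (1.64 to 3.06). The median distance was 1049 bp (quartiles 732 and 1484) for peaks and 1168 bp for failing candidates, and the median signal was 99.7 in the closest bin and 77.5 to 93.0 in the others.

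Signals next to the distance limits varied as much on each side as across them. Just inside the lower limit lay peaks of ph-p at 501 bp (signal 696), CG31523 at 502 bp (134) and Eip63F-1 at 503 bp (153), and just outside it those of Sec13 and bun at 498 bp (76.1 and 72.5) and aru at 492 bp (185). Just inside the upper limit lay peaks of CG1677 at 1989 bp (122), CG43867 at 1975 bp (69.5) and CG14434 at 1974 bp (66.8), and just outside it those of Dif at 2011 bp (105), CHES-1-like at 2026 bp (374) and Irk1 at 2026 bp (57.5).

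Most of the peaks lay in a first intron. The summit was in the first intron of a transcript of the gene with the nearest start in 246 of 313 peaks (78.6%, 73.7 to 82.8), against 60.8% of failing candidates in the same position. With both limited to introns of at least 500 bp the shares were 80.2% and 67.3%. Counted over the introns of any gene that held the summit, they were 84% and 67.9%. Among summits whose nearest start was that of a gene holding them, they were 86% and 74.5%. First-intron shares elsewhere in the text refer to the gene with the nearest start. The nearest start belonged to the gene whose intron held the summit in 286 peaks. In 191 the summit was downstream of that start (55.5 to 66.3%, against 61.2% of failing candidates) and in 95 it was upstream of it (30.4%, 25.5 to 35.7, against 20.4%), inside a longer transcript of the gene. The nearest start was that of another gene in 27 peaks (8.63%, against 18.3%). Signal hardly differed by side, with medians of 87.8 downstream, 88.8 upstream and 82.1 at the start of another gene.

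**Figure D3:**
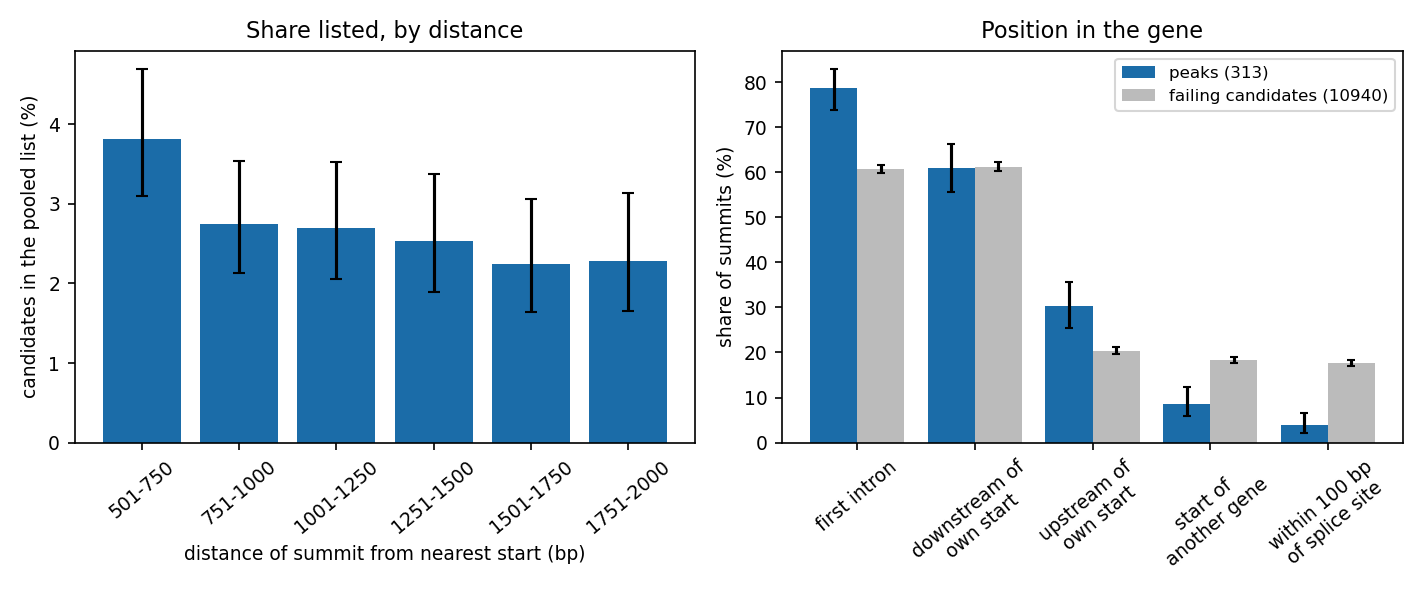
Left, percent of pooled candidates in near-start introns that were listed as peaks (y axis) by distance of the summit from the nearest start (x axis, bp). Right, percent of summits (y axis) in each position for 313 peaks and 10940 failing candidates, with 95% Wilson intervals on both. The listed share is 3.82% in the closest bin and 2.24% to 2.75% in the others. In a first intron of the gene with the nearest start were 78.6% of peaks and 60.8% of failing candidates.

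Summits kept away from splice sites. Only 12 peaks (3.83%, 2.21 to 6.58) had the summit within 100 bp of an intron end, against 17.6% of failing candidates. Short introns were rarer among the peaks: 303 of 313 (96.8%) were in introns of at least 500 bp, against 86.7% of failing candidates, with lower quartiles of intron length of 1944 and 1391 bp and medians of 4440 and 4174 bp. In introns of at least 500 bp the splice-site shares were 1.98% (0.911 to 4.25) and 6.32%. The strongest peak, in CG11050, was 1 of the 12, with its summit 57 bp from a splice site of an intron of 140 bp. In 7 peaks (2.24%) the summit lay in a noncoding exon, against 2.47% of failing candidates, in 8 (2.56%) within 500 bp of a noncoding start, against 4.05%, and in 22 (7.03%) in introns of more than 1 protein-coding gene, against 6.11%. All 3 shares of failing candidates were inside the peaks' intervals.

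Signal in the near-start intronic peaks had a median of 87.8 (quartiles 69.1 and 129.6, range 2.81 to 1467). The medians were 84.6 in promoter peaks, 83.9 in intergenic peaks, 77.3 in far intronic peaks and 19.3 in failing candidates of the same introns. Of the 10, 100 and 500 strongest pooled peaks, 2, 16 and 81 were near-start intronic, and the last is a share of 16.2% (13.2 to 19.7) beside 14.2% of the whole list. The 5 peaks with a signal under 40 all overlapped a stronger pooled peak. In HmgZ a summit of signal 35.6 stood 200 bp from one of 626 in the same region, and the others were in Ogdh, Tmem214, Pect and rhea. In all, 14 peaks (4.47%) overlapped another pooled peak, against 7.64% of the whole list.

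Support from the single replicates was uneven. A region was counted as found in a replicate's list when it overlapped one of its thresholded peaks by at least 1 bp. Replicate 1's list covered 215 of the 313 (68.7%, 63.4 to 73.6) and replicate 2's, the shorter list, 124 (39.6%, 34.4 to 45.1). Both lists covered 105 (33.5%, 28.5 to 38.9), replicate 1's alone 110, replicate 2's alone 19, and neither 79 (25.2%). The share in both was 32.4% for promoter peaks, 28.3% for intergenic peaks and 22.5% for far intronic peaks, with 25.3%, 31.0% and 34.4% in neither. The smaller list that the authors mark as conservative covered 215 of the 313, 70.3% of intergenic peaks, 68.2% of promoter peaks and 59.0% of far intronic peaks.

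A candidate region of replicate 1 overlapped all 313 peaks and one of replicate 2 overlapped 312. Across these 312 the signals in the replicates' own lists had a Spearman correlation of 0.568, against 0.515 over the 2155 pooled peaks with a value in both. The points share the pooled data that selected them and differ in sequence coverage to an unknown extent, so this is a description. Pooled signal followed replicate 1 (rho 0.881) more closely than replicate 2 (0.776). Presence in the lists went with signal: from the lowest to the highest of the 4 bins of pooled signal, replicate 1's list held 30.4%, 56.4%, 89.7% and 98.7% of the peaks and replicate 2's 7.59%, 11.5%, 46.2% and 93.6%. Peaks in both lists had a median pooled signal of 164.3, those in replicate 1's alone 83.4, those in replicate 2's alone 81.0 and those in neither 64.3.

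**Figure D4:**
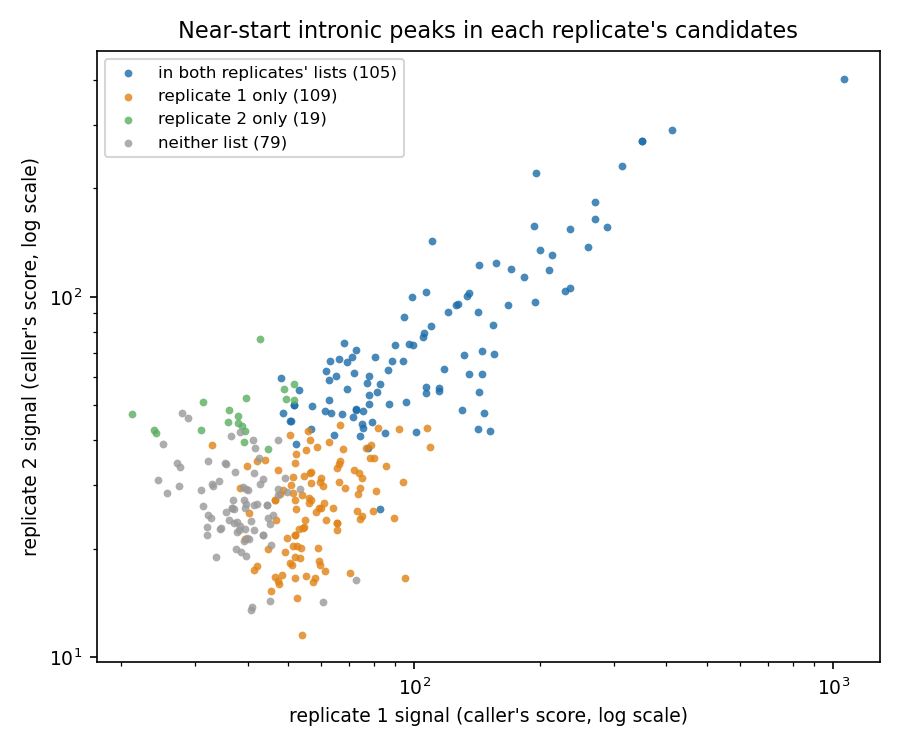
Signal of near-start intronic peaks in the candidate lists of replicate 1 (x axis) and replicate 2 (y axis), the peak caller's score on log scales, coloured by whether the peak was in the thresholded list of each replicate. The 312 peaks with a candidate in both are drawn, and most of the 105 in both lists lie at higher signal than most of the 79 in neither, with some overlap of the classes on each axis.

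All 25 strongest near-start intronic peaks were in the lists of both replicates and in the conservative list. Their ranks among the candidates of replicate 1 ran from 1 to 281 and among those of replicate 2 from 2 to 187. Of the 25, 21 were in a first intron of the gene with the nearest start. By side, 15 lay downstream and 9 upstream of a start of their own gene. The X chromosome carried 8 of the 25, and 8 held ACAGTGG near the summit.

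The peak in intron 2 of CG11050, a gene known by its annotation symbol, had a pooled signal of 1467 (2L, 6612404 to 6612902), 1010 bp downstream of the start. Its signal was 1062 in replicate 1, where it ranked first, and 403 in replicate 2, where it ranked second. The peak of ph-p, which encodes a Polyhomeotic protein of the Polycomb repressive complexes, had a signal of 696 (X, 2137228 to 2137479), with 413 and 290 in the replicates and rank 8 in each. It lay 501 bp upstream of 1 ph-p start inside a longer ph-p transcript. Both peaks were among the leading regions of each replicate.

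The peak of HmgZ, an HMG-box chromatin protein gene whose intron there also lies within HmgD, had a signal of 626 (349.5 and 270.4 in the replicates). CG32772 followed with 549 (312.7 and 230.6) and Reph with 467 (269.4 and 183). Trl, which encodes GAGA factor, had 452 (3L, 14759398 to 14759639; 288.6 and 156), 1534 bp from its start, and NFAT had 430 (269.98 and 164.1), 1660 bp upstream of 1 start in an intron of 23787 bp. These 5 ranked 17 to 39 in replicate 1 and 10 to 48 in replicate 2, so all stood among the leading 50 candidates of both.

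Adf1, which encodes a Myb-related transcription factor, had a signal of 396 and stood at rank 89 in replicate 1 and 18 in replicate 2, while chif, the Dbf4-related gene of replication and amplification, had 394 and ranks of 44 and 66. Of the 25 strongest, mub, a KH-domain RNA-binding protein gene with a pooled signal of 260, had the lowest place in replicate 1, rank 281, and rank 62 in replicate 2. The other 15 had pooled signals of 241 to 390, and 14 of them lay in CG3726, CG9663, CG9837, sick, norpA, KCNQ, CG31635, CG4496, for, prage, LPCAT, CG42327, Fem-1 and shn. KCNQ, a voltage-gated potassium channel gene, held its peak in a first intron of 37343 bp. The nearest start there was that of another gene, mlt, 741 bp away.

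The 313 peaks lay in 270 host genes. Of these, 233 held 1 peak, 32 held 2, 4 held 3 and 1, HmgZ, held 4. HmgZ had signals of 626, 108, 81.8 and 35.6, the last from the same region as the first. NFAT had 430, 118 and 80.3, all upstream of NFAT starts. The shn gene, for a zinc-finger cofactor of Mad, had 241, 85.9 and 47.7, tai, for a steroid receptor coactivator, had 148, 98.6 and 91.8, and ps, for an RNA-binding splicing regulator, had 117, 71.7 and 69.6. The replicates did not back these equally: tai's first peak ranked 147 in replicate 1 and had no candidate in replicate 2, and the weakest shn peak was in neither list.

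Among genes with 2 such peaks, ph-p, Adf1, CG9663 (355 and 140), CG9837 (341 and 108) and Csk (220 and 63.3) had the strongest first peak. CHES-1-like, a forkhead gene, had 182 and 103, cno, for the junction protein Canoe, 182 and 53.9, Moe, for Moesin, 174 and 57.6, Kank 168 and 79.4, and pico 163 and 67.5. In the other 22, the first peak was 142 or weaker, as in wit, Tlk, Irk1, bark, Rab11, C3G, Src64B and CrebB. In 5 of all these genes (Ogdh, Pect, Tmem214, rhea and Tab2) the pair is 2 summits of overlapping regions. A second peak was weaker than 100 in most of them.

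In 178 of 270 host genes (65.9%) the gene body held no peaks but near-start intronic ones. Promoter peaks outside the gene body, as at CG11050 and CG9663, do not lower this share, and no share for other genes was taken. A promoter peak within 500 bp of a start was present in 79 hosts (29.3%, 24.2 to 34.9), against 494 of 3588 genes (13.8%, 12.7 to 14.9) that had failing candidates but no peak in the same intronic position. Hosts and the other genes were not matched for number of starts, and each start adds a place for a promoter peak. A part of this in the contrast was not tested. Both shares also depended on the list used. They were 17.8% (12.6 to 24.6) and 7.71% with pooled peaks at or above the median signal, 16.8% (11.2 to 24.5) and 5.74% with the list of replicate 2 alone, and 48.7% and 11.1% with a lower distance limit of 200 bp, where an intronic peak within 500 bp of a start counts both as near-start intronic and as a promoter peak. Another pooled summit lay within 2000 bp of 98 of the 313 peaks (31.3%), and the median distance to the nearest other summit was 5159 bp. By arm, peaks made up 3.23% of such candidates on X (73 of 2257), 2.85% on 2L, 2.78% on both 3L and 3R, 2.31% on 2R and 0 of 25 on chromosome 4.

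Gene lists by pathway and tissue, chosen with earlier results of these data known, were read against the share of near-start intronic candidates that were peaks in all genes, 2.78%, and the share of genes with such a candidate that held a peak, 270 of 3859. No test over a list was made.

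**Figure D5:**
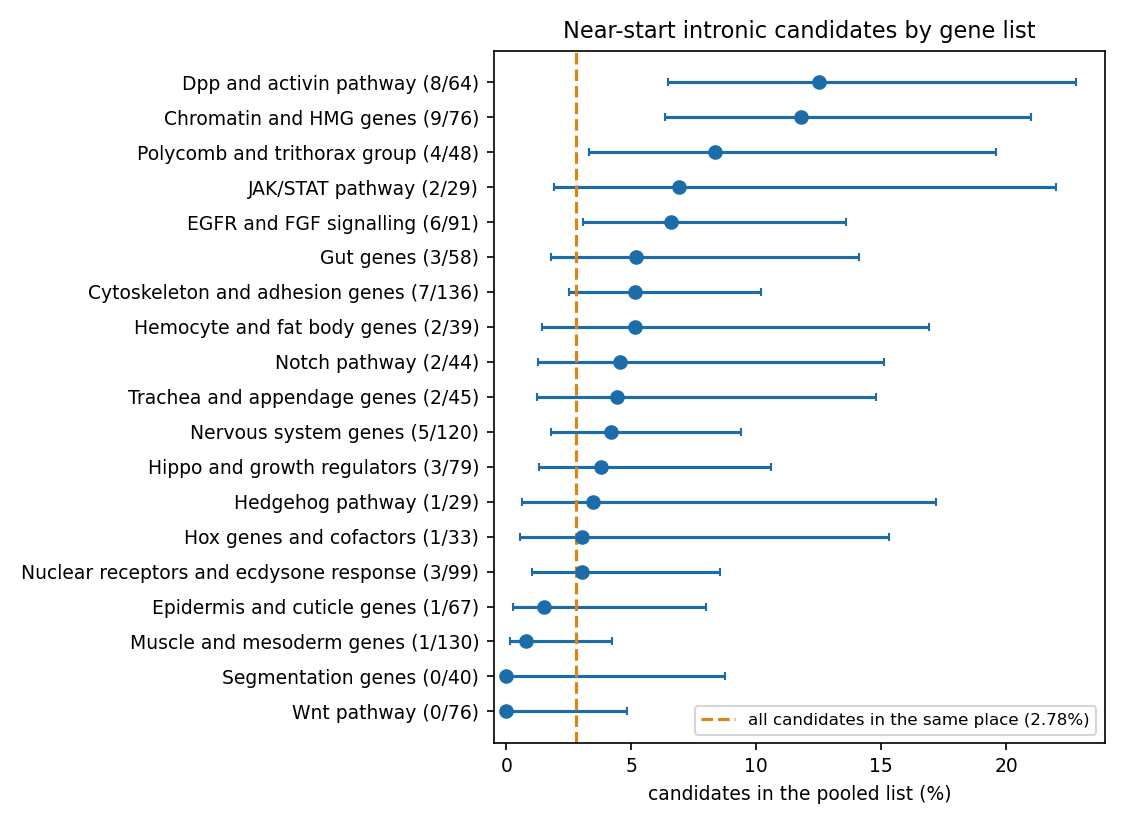
Percent of near-start intronic candidates that were peaks (x axis) in the genes of each list with at least 20 such candidates (y axis, peaks of candidates in brackets), with 95% Wilson intervals, beside 2.78% over all candidates (dashed line). The Dpp and activin list stands at 12.5% and the Wnt list at 0.

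Of the Dpp and activin list, 5 of 12 genes with a candidate and 8 of 64 candidates (12.5%, 6.47 to 22.8) had peaks. Dpp is the BMP-type ligand that patterns the dorsal embryo and gut. Among its receptors, wit, a type II receptor gene, had 2 peaks, of signal 142 (72.6 in replicate 1 and 71.1 in replicate 2) and 69.4 (51.4 and 20.3), and put, the other type II receptor gene, had 1 of 55.9 (25.7 and 28.5). Mad, the receptor-activated Smad gene, had 1 of 186 (106 and 79.2), 654 bp upstream of a start, in both replicates' lists. Its partner shn led the list with 241 (154 and 83.5). Dad, the inhibitory Smad gene, had 1 of 59.95, rank 1152 in replicate 1 and 53455 in replicate 2. Thus Mad and the first peaks of shn and wit were in both lists, the put peak was in neither, and the Dad peak was in that of replicate 1 alone.

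Chromatin and HMG genes had peaks in 5 of 20 genes and 9 of 76 candidates (11.8%, 6.36 to 21.0). HmgZ gave 4 of the 9 and 1 more was in HmgD (57.5). Tlk, the Tousled-like kinase gene of chromatin assembly, had 133 (69.0 and 65.8 in the replicates) and 90.7, CtBP, a corepressor gene, 84.0, and Dsp1, an HMG-box gene, 80.3. The Polycomb and trithorax list had peaks in 3 of 13 genes and 4 of 48 candidates (8.33%): ph-p (696 and 77.7), Trl (452) and kis, a chromatin remodeller gene of the trithorax group, with 131 in an intron of 7230 bp that also holds a noncoding exon there.

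In EGFR and FGF signalling, 5 of 21 genes and 6 of 91 candidates (6.59%) had peaks. Ligand and ligand-processing genes were ths, an FGF ligand gene, with 143 (71.1 and 68.2), S, which encodes the ligand chaperone Star, with 148 (86.7 and 62.6), and ru, a rhomboid protease gene, with 60.8. The adaptor gene drk had 173 (90.1 and 73.3), although the nearest start there was that of mars. The feedback inhibitor gene sty (Sprouty) had 108 (64.4 and 41.3) and 90.6. The peaks of ths, S, drk and the first of sty were in both replicates' lists, and that of ru was in neither.

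The Notch list had 2 peaks in 44 candidates. They were in edl, listed there although it encodes an antagonist of the ETS factors Yan and Pointed, with 172 (96.9 and 74.1), and in neur, the ubiquitin ligase gene for Delta internalisation, with 146 (87.2 and 50.5), both in the lists of both replicates. The JAK/STAT list had 2 in 29, in the transcription factor gene Stat92E (77.3) and its feedback inhibitor gene Socs36E (62.9). The Hedgehog list had 1 in 29 (3.45%), in the co-receptor gene boi (63.8). The Hippo and growth list had 3 in 79 (3.8%), in the insulin receptor gene InR (118), sbb (103) and Mnt (55.1). Each of these shares rests on 3 peaks or fewer.

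The odd-skipped family and its regulators had 2 near-start intronic candidates and 1 such peak, in bowl itself. Its signal was 113 (2L, 3772882 to 3773191; 77.5 in replicate 1 and 38.1 in replicate 2), it lay 1011 bp downstream of a start in an intron of 6998 bp, and it was in both replicates' lists with ACAGTGG within 100 bp. Since the flies carried a bowl transgene, the chromosomal copy and the inserted copy cannot be told apart there. The gut list had 3 peaks in 58 candidates, in crb (114), the apical polarity gene, in bowl and in Stat92E.

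Lists by tissue and cell structure had intervals that included 2.78%. Cytoskeleton and adhesion genes had 7 peaks in 136 candidates (5.15%), in Msp300 (196), tsr, the cofilin gene (185), Moe (174 and 57.6), crb (114), Rho1 (62.9) and mew, an integrin gene (62.8). Nervous system genes had 5 in 120 (4.17%): brat, a translational repressor gene (235), fra, the netrin receptor gene (106), its ligand gene NetB (94.8), elav (74.6) and zfh1 (69.1). Hemocyte and fat body genes had 2 in 39 (5.13%), in ush (70.7) and Pvf3 (63.6). Tracheal and appendage genes had 2 in 45 (4.44%), both in rib (78.2 and 68.8). The Hox list had 1 in 33 (3.03%), in lab (55.4), and epidermis and cuticle genes 1 in 67 (1.49%), in pot (91.9). The nuclear receptor list had 3 in 99 (3.03%), all in tai. Muscle and mesoderm genes had 1 in 130 (0.769%), in zfh1.

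The Wnt pathway list had 0 peaks in 76 near-start intronic candidates of 16 genes, which allows a share of up to 3.95% by the same rule of 3 counts of the total, and the segmentation list 0 in 40 candidates of 14 genes, which allows up to 7.5%. The intervals drawn for them in the plot by list are Wilson's and reach 4.81% and 8.76%. All these limits lie above 2.78%, so lower shares than in all genes were not detectable with this many candidates.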

How the data were processed

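The 2 biological replicates form 1 group of Bowl-eGFP embryos. Per the labels, coordinates are on dm6. Which aligner and peak caller were run is not given in the sources used here. For each replicate and for the pool, the authors deposited ranked candidate lists and thresholded lists. Each peak's signal is a score from the authors' caller, and the authors also deposited a −log10 IDR, where 2 stands for an IDR of 0.01, and a summit offset. The ranked list that compares the replicates was not used.

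Summits were placed with Ensembl release 115 models (BDGP6.54) in promoter (500 bp), CDS, UTR, intron or intergenic sequence, in Python 3.11.15 with pandas 2.3.3 and SciPy 1.17.1. Placement was checked at random positions against a direct scan of the same gene models, and the word search on simulated sequence. Failing candidates had a −log10 IDR under 2. Replicate values came from the strongest overlapping candidate (at least 1 bp). The 16 words were searched on both strands of the RefSeq Release 6 sequence. Of the names in the 20 gene lists, Dl, ban, B and calypso were unmatched.

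The genes named were hosts of the 25 strongest peaks, of the 3 peaks nearest each limit on either side, of 2 or more peaks, of listed genes (5 strongest a list) and of peaks with ACAGTGG or CAGTAGC (12 strongest each). One of these genes is not reported here. The members, words and lists were chosen with earlier results of these data known. The alternatives tried were other lists, limits, start sites, windows and summit definitions. Read depth is unknown, and the number of peaks limits the precision.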

Additional observations from a re-analysis of the deposited data

Results flagged for a closer look

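In near-start introns, 14 pooled candidates had a −log10 IDR of at least 2 and were in none of the thresholded lists, 9 of them on 3R, 4 on 2L and 1 on 2R. Over all positions there were 89 such candidates. The strongest was in ush, a cofactor gene of GATA factors, with a pooled signal of 951 (2L, 480962 to 481233). Only 1 of the 132019 pooled candidates had a higher signal. It had rank 3 in replicate 1 (signal 568) and rank 1 in replicate 2 (405), and lay 1429 bp from a start. The next was in Lk6, a kinase gene, with 549 (3R, 11760938 to 11761159), rank 18 in replicate 1 and 22 in replicate 2, 955 bp from a start. The other 12 had signals of 10.7 to 121 and were in CG1943, Kdm2 (2 candidates), COX7AL2, Sin3A, Alh, crp (2), Hel89B, jumu, Unc-115a and InR. Why they are absent from the lists was not tested. They entered no count of peaks above, and ush and InR are named there for other peaks.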

How the results depend on the processing

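Of 127 recomputed values, 89 moved by less than their interval (for the median signal, 82.1 to 94.4) or, for counts, by less than 1.5 times, and 38 moved further, among them median signals taken from other lists. With the conservative list the median signal was 105.1, 76.3% and 51.3% of the peaks were in the lists of replicates 1 and 2, and 22.6% of host genes had a promoter peak. With pooled peaks at or above the median signal, 172 peaks remained (1.53% of candidates, median signal 120.8), of which 92.4%, 64.5% and 94.2% were in the lists of replicate 1, replicate 2 and the conservative list, and 17.8% of hosts had a promoter peak. With start sites of all gene types, 70.2% were in a first intron and 53.1% downstream of the start. An upper limit of 1000 bp gave 144 peaks (3.30% of candidates, median signal 94.7, 45.8% in replicate 2's list), and one of 5000 bp gave 489 (2.06% of candidates, 72.6% in a first intron). A lower limit of 200 bp gave 3.29% of candidates, 51.9% downstream and 48.7% of hosts with a promoter peak, and one of 1000 bp gave 169 peaks, 2.45% of candidates and 34.3% in replicate 2's list. ACAGTGG was present in 5.11% within 50 bp and 23.3% within 200 bp, and CAGTAGC in 0.32% within 50 bp.

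With 1 replicate left out, the other's own list took the place of the pooled list. Without replicate 2 and without replicate 1 it gave 243 and 126 peaks, 2.55% and 1.48% of candidates, a median signal of 64.1 and 58.2 on each list's own scale, which cannot be compared with the pooled one, 72.8% and 95.2% in the conservative list, 79.8% and 84.9% in a first intron, 15.6% and 21.4% with ACAGTGG, and 28.0% and 16.8% of hosts with a promoter peak. Without replicate 1, 83.3% were in replicate 1's list, and without replicate 2, 42.4% were in replicate 2's. The cause of these moves was not tested. Reducing overlapping peaks to the strongest, limiting GC content and limiting intron length were chosen after seeing the data. Not run were the candidate share for the conservative list and the overlap of a list with itself. No paired analysis was possible because the samples form 1 group. The single group, the unknown depth and the undefined scale of the signal limit these values to descriptions of the deposited lists.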
